A study of Homo sapiens with 6 samples.

Results

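The aldehyde dehydrogenases described here are 10 genes, *ALDH1A1*, *ALDH1A2*, *ALDH1A3*, *ALDH1B1*, *ALDH2*, *ALDH3A1*, *ALDH3A2*, *ALDH7A1*, *ALDH9A1* and *ALDH18A1*. They were chosen by their GENCODE symbol among the 62700 genes of each expression table, by a rule that names no measured value but was set with earlier results of these data known, and they make up 10 of the 19 human *ALDH* genes. The libraries came from SK-Hep1, an established liver tumour line that the paper calls endothelial-derived. RNA–Seq covered 3 libraries titled shControl, whose genotype label is WT, and 3 libraries with knockdown of the lncRNA *RAB30-DT*, titled shRAB30-DT. By the study's methods, both control and knockdown constructs were carried in lentiviral pLKO.1 vectors and the cells were selected with puromycin. The genotype label of the control cells names no construct, and if they carried none, the knockdown cannot be told apart from vector and selection. Nothing in the labels says that replicates were separate cultures, so the p-values measure only the spread between these libraries, which may be technical.

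Aldehyde dehydrogenases oxidise aldehydes to carboxylic acids with NAD or NADP as the acceptor of electrons. The ALDH1A enzymes make retinoic acid from retinaldehyde, others clear the aldehydes of alcohol and lipid breakdown, and several serve a single step of amino acid metabolism. High ALDH activity, read with a fluorescent substrate that several of these enzymes can turn over, is used as a marker of cancer stem cells, and *ALDH1A1* is the member most often named for it. The comparison asks which of these genes were transcribed in SK-Hep1 cells at all, and whether their levels differed between control and knockdown cells. Enzyme activity was not measured in these libraries.

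The values are in TPM, a unit that corrects for the length of a gene and gives every library the same total, so that levels may be set side by side between genes. Where 3 values of a group follow each other, they are those of replicates 1, 2 and 3 in this order. *ALDH3A2* was the member with the highest level in every library, with a mean of 242 TPM in control cells and 115 TPM in knockdown cells. *ALDH1A1* was a minor transcript, with means of 10.5 TPM and 3.57 TPM, and *ALDH2* and *ALDH1A2* stayed under 1 TPM in all 6 libraries. The libraries of the 2 groups did not overlap for 6 of the 7 members that entered the test, of which 5 were lower and *ALDH18A1* was higher in knockdown cells. Among all tested genes, 13.4% were lower and 9.89% higher without overlap. With limma, 0 of the 7 passed the test after adjustment over all genes, beside 1.04% of all genes, and 4 of the 7 had an unadjusted p under 0.05, beside 16.8%.

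The *ALDH1A1* and *ALDH2* transcripts are those for which the study designed qPCR primers, shown here 5′ to 3′ because they mark which part of each transcript that assay reads.
*ALDH1A1* forward: cgggaaaagcaatctgaagaggg
*ALDH1A1* reverse: gatgcggctatacaacactggc
*ALDH2* forward: ttgcctcccatgaggatgtgga
*ALDH2* reverse: ggtcactctcttgaggttgctg
Each primer matched the canonical transcript of its gene once, in coding sequence. On hg38 the *ALDH1A1* primers lie in exon 8 (chr9:72918774-72918796) and exon 9 (chr9:72917035-72917056) of 13 exons and span 147 bases of the transcript. The *ALDH2* primers lie in exon 7 (chr12:111791370-111791391) and exon 8 (chr12:111792093-111792114) of 13 exons and span 104 bases. The *ALDH1A1* forward primer matched 1 of the 7 annotated transcripts of the gene and the reverse primer 2 of 7, whereas each *ALDH2* primer matched 3 of 5. The TPM values are sums over all transcripts of a gene, so for both genes the RNA–Seq values and the qPCR region do not cover the same set of transcripts. The cells differ too, since the paper shows this qPCR for HepG2 and Huh7 and not for SK-Hep1. It reports that knockdown lowered *ALDH1A1* in HepG2 without appreciable effect in Huh7, and that *ALDH2* changed little in either line.

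Promoters are shown for 3 members, *ALDH1A1*, *ALDH3A2* and *ALDH18A1*, 1 for each gene, from 250 bases before to 50 bases after the RefSeq start on GRCh38.p14. *ALDH18A1* had no unadjusted p under 0.05 from limma, whereas *ALDH1A3* and *ALDH9A1*, which did, are not shown. Capitals mark ACGTG on either strand, the core to which hypoxia-inducible factors are known to bind.
*ALDH1A1*, chr9:72953004-72953303, minus strand: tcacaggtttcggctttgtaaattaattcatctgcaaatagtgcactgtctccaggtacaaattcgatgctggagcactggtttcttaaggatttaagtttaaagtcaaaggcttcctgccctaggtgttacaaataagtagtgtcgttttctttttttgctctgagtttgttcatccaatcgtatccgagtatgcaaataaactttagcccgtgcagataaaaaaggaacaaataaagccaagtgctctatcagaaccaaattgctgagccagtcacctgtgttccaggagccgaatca
*ALDH3A2*, chr17:19648501-19648800, plus strand: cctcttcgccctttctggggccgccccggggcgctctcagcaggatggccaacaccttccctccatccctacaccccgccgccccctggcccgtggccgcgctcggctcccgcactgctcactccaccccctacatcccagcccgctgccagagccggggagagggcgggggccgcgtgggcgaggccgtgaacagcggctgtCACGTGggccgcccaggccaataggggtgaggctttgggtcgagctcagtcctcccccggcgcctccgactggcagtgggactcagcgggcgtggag
*ALDH18A1*, chr10:95656662-95656961, minus strand: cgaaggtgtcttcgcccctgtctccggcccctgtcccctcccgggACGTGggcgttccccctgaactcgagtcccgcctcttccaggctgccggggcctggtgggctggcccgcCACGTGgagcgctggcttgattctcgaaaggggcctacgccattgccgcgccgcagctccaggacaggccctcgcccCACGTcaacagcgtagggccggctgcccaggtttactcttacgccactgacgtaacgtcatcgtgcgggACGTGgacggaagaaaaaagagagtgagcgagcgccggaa
The *ALDH1A1* promoter was the poorest of the 3 in G and C, at 40.3%, with 7 CpG dinucleotides, where the median over all 35116 promoters was 14. It held no ACGTG. The *ALDH3A2* promoter shown, at 73.3% G and C with 27 CpG, held CACGTG, which reads as ACGTG on both strands and so counts as 2 matches. RefSeq lists a second start of this gene, whose window (chr17:19647886-19648185) had 55.0% G and C, 12 CpG and 1 match. The *ALDH18A1* promoter, at 67.0% with 31 CpG, held 5 matches, of which 2 are both strands of 1 CACGTG. RefSeq promoters were found for 8 of the 10 members, all but *ALDH2* and *ALDH3A1*. These genes have 10 promoters in the table, of which 5, from *ALDH1A2*, *ALDH1B1*, *ALDH3A2* and *ALDH18A1*, held ACGTG, beside 7518 of all 35116 promoters (21.4%). Those of *ALDH1A1*, *ALDH1A3*, *ALDH7A1* and *ALDH9A1* held none. TGACNNNGC, the core of the antioxidant response element, was in none of the members' promoters on either strand and in 13.3% of all promoters. Such matches describe these windows only.

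*RAB30-DT* itself was at 18.16, 11.51 and 13.91 TPM in the control libraries against 11.94, 10.85 and 6.5 TPM in the knockdown libraries. Knockdown replicate 1 was above control replicate 2, so the groups overlapped, and the log2 fold change of *RAB30-DT* was −0.55 (SE 0.27, adjusted p = 0.355 from limma). The paper also reports a qPCR check of the knockdown in this line. Its methods describe separate shRNA vectors against *RAB30-DT*, and the sample titles do not say which was used. The defining hepatocyte markers *ALB* and *HNF4A* were at 0 in every library, as were 6 of 10 hepatocyte markers, and the summed hepatocyte level, nearly all *SERPINA1*, ran from 18.1 to 24.3 TPM in control and from 28.3 to 37.2 TPM in knockdown libraries. The endothelial markers *PECAM1*, *KDR* and *CDH5* were at or under 0.06 TPM. *VWF* was at 0.07, 0.13 and 0.13 TPM in control against 0.30, 0.36 and 0.31 TPM in knockdown libraries. The 7 endothelial markers summed to at most 3.21 TPM, in control replicate 2, where *TIE1* was at 3.08 TPM. These libraries thus held little RNA of these markers, and the origin of the line was not tested. The 7 mesenchymal markers, mostly *VIM*, summed to 3912 to 4174 TPM in control and 4464 to 4907 TPM in knockdown libraries. Of the 6 tested, 5 log2 fold changes were above 0 and that of *THY1*, the next highest, was below. *THY1* was at 148, 142 and 102 TPM in control against 76.0, 92.8 and 98.7 TPM in knockdown libraries. *COL1A1*, *COL1A2*, *CDH2* and *S100A4* were at or under 5.54 TPM. The part of these marker levels in the results on *ALDH* genes was not tested. In bulk RNA, fewer cells that express a gene and less RNA of it per cell cannot be told apart. Depth is unknown because TPM values keep no read number, and no counting interval is given.

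The ladder of levels was steep. In control cells, *ALDH3A2* came first, followed by *ALDH7A1*, *ALDH9A1* and *ALDH18A1*, with means of 242 ± 80.8, 101 ± 23.5, 86.3 ± 8.68 and 55.8 ± 6.39 TPM (SD, n = 3). *ALDH3A2* was above *ALDH7A1* in every pairing of control libraries, *ALDH7A1* and *ALDH9A1* overlapped, and *ALDH9A1* was above *ALDH18A1* throughout. A second tier held *ALDH1A3* at 14.1 ± 2.42, *ALDH1A1* at 10.5 ± 2.29 and *ALDH1B1* at 8.76 ± 0.418 TPM (SD, n = 3), beside the non-members *ALDH3B1*, *ALDH4A1* and *ALDH16A1*, and each neighbour in this tier overlapped the next. *ALDH3A1* was at 1.60 ± 0.454 TPM, *ALDH2* at 0.160 ± 0.149 TPM and *ALDH1A2* at 0.0400 ± 0.0693 TPM (SD, n = 3).

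In knockdown cells *ALDH3A2* was still first but its range met that of *ALDH7A1*, with means of 115 ± 10.2 and 92.9 ± 21.3 TPM (SD, n = 3). *ALDH18A1*, at 68.0 ± 4.68 TPM, was above *ALDH9A1*, at 57.5 ± 3.20 TPM (SD, n = 3), and here the ranges did not meet, so this pair stood in the opposite order to control cells. *ALDH1A1*, at 3.57 ± 0.947 TPM (SD, n = 3), came 11th of the 19 *ALDH* genes in knockdown cells and 8th in control cells. Averaged over all 6 libraries, the first 7 places were the same with each library left out in turn and with median-of-ratios scaling.

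**Figure D1:**
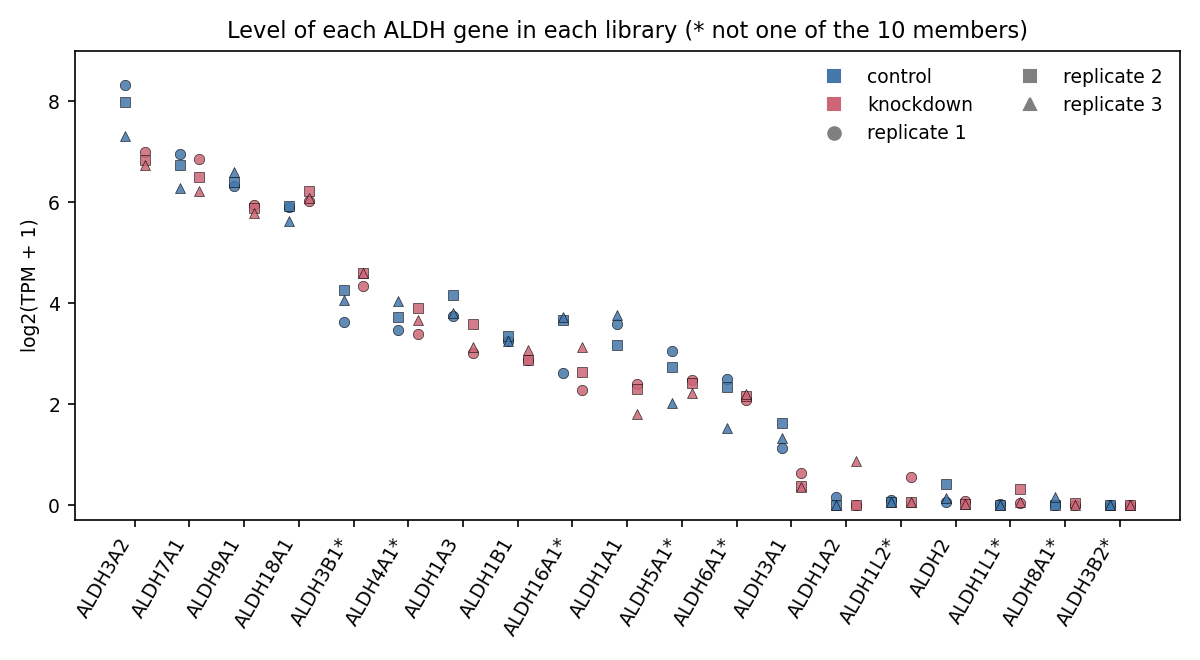
Level of each of the 19 ALDH genes as log2(TPM + 1), ordered by the mean over all libraries, with control libraries in blue, knockdown libraries in red and a symbol for each replicate. The 4 leading genes are members and lie above all others in every library, ALDH1A1 lies among genes of about 10 TPM in control cells, and ALDH2 and ALDH1A2 lie near 0.

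*ALDH1A1*, on the minus strand of chromosome 9 (72900671 to 73080442, hg38), encodes a cytosolic retinaldehyde dehydrogenase. Its level was 10.95, 8.07 and 12.60 TPM in the control libraries against 4.29, 3.93 and 2.50 TPM in the knockdown libraries. All 3 knockdown libraries were below all 3 control libraries. On the scale of log2(TPM + 1), on which differences of low genes are understated, its log2 fold change was −1.34 (SE 0.26, 95% interval −1.93 to −0.75), or 2.53-fold lower in TPM + 1. Its p was adjusted by Benjamini–Hochberg over all 14020 tested genes, those whose 6-library mean reached 1 TPM, and came to 0.0588 from limma, just above the threshold of 0.05 that 146 genes (1.04%) passed. At an adjusted p under 0.1, *ALDH1A1* was the one member called, beside 3.25% of all genes.

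*ALDH1A3*, on the plus strand of chromosome 15 (100877714 to 100916626), encodes another cytosolic enzyme of the same reaction. It was at 12.46, 16.91 and 13.03 TPM in the control libraries against 7.05, 11.01 and 7.80 TPM in the knockdown libraries. The groups did not overlap, and its log2 fold change was −0.66 (SE 0.23, 95% interval −1.19 to −0.14, adjusted p = 0.202 from limma). The antisense RNA *ALDH1A3-AS1* shares 1715 exon bases with it and was at 0.92 to 2.20 TPM. Whether the libraries keep strand is not given in the sources used here, so reads of the pair cannot be told apart.

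*ALDH1A2*, the third retinaldehyde dehydrogenase, was at 0.12, 0 and 0 TPM in the control libraries against 0, 0 and 0.83 TPM in the knockdown libraries. It lies on the minus strand of chromosome 15 (57953424 to 58497866) and was too low for the test. Together the 3 ALDH1A genes summed to 23.5, 25.0 and 25.6 TPM in control against 11.3, 14.9 and 11.1 TPM in knockdown libraries, or 24.7 ± 1.08 against 12.5 ± 2.14 TPM (SD, n = 3). In these values the control sums lay close together although *ALDH1A1* and *ALDH1A3* took different shares of them, and every knockdown sum was below every control sum. With median-of-ratios scaling the control sums were more spread, at 22.3, 24.0 and 27.6, and the knockdown sums, at 11.1, 14.6 and 11.9, were again all lower. *ALDH1A3* had the higher mean of the pair in both groups, while in control cells the ranges of *ALDH1A1* and *ALDH1A3* met from 12.46 to 12.60 TPM.

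*ALDH2* and *ALDH1B1* encode mitochondrial enzymes that oxidise acetaldehyde, of which ALDH2 is the main one in liver. *ALDH2*, on the plus strand of chromosome 12 (111766887 to 111817532), was at 0.05, 0.33 and 0.10 TPM in the control libraries against 0.06, 0.02 and 0.01 TPM in the knockdown libraries. The groups overlapped, and an exact two-sided permutation test of the TPM gave p = 0.2, where 0.1 is the lowest value that groups of 3 can reach. *ALDH2* made up at most 0.0616% of the summed level of the 10 members in any library.

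*ALDH1B1*, on the plus strand of chromosome 9 (38392702 to 38398661), carried nearly all of the transcript of this mitochondrial pair. It was at 8.48, 9.24 and 8.56 TPM in the control libraries against 6.37, 6.38 and 7.36 TPM in the knockdown libraries. The groups were apart without overlap, but the difference was small, with a log2 fold change of −0.34 (SE 0.19, 95% interval −0.77 to 0.09, adjusted p = 0.395 from limma).

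*ALDH3A2* and *ALDH3A1* lie near each other on chromosome 17, at 19648136 to 19685760 on the plus strand and 19737984 to 19748943 on the minus strand. *ALDH3A2* encodes the fatty aldehyde dehydrogenase of the endoplasmic reticulum, whose loss causes Sjögren–Larsson syndrome. It was at 318.86, 250.64 and 157.94 TPM in the control libraries against 125.69, 112.80 and 105.54 TPM in the knockdown libraries. The lowest control library was above the highest knockdown library, and the control libraries were far more spread than the knockdown libraries. The log2 fold change was −1.02 (SE 0.25, 95% interval −1.59 to −0.45, adjusted p = 0.101 from limma), or 2.03-fold lower in TPM + 1.

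Within each group, the levels of *ALDH3A2* and of *ALDH7A1* were lower the more positive the library's trend with GC content was. This trend was taken across genes, between GC content and a gene's deviation in the library from its own mean log2(TPM + 1) over all libraries. Spearman's rho was −0.607, 0.297 and 0.489 in the control libraries against −0.523, 0.0220 and 0.330 in the knockdown libraries. With each library's GC trend removed, the log2 fold change of *ALDH3A2* was −1.01 (SE 0.16, adjusted p = 0.0179 from limma). Without control replicate 3, the control library nearest to the knockdown libraries, it was −1.30 (adjusted p = 0.0265), in a fit that called 1.14% of all genes. Its adjusted p over all alternatives ran from 0.00147 to 0.355.

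*ALDH3A1* encodes a cytosolic enzyme for aldehydes from lipid peroxidation, abundant in the cornea. Its level was 1.19, 2.09 and 1.53 TPM in the control libraries against 0.56, 0.30 and 0.29 TPM in the knockdown libraries. Every knockdown library was lower, but the mean over the 6 libraries, 0.993 TPM, was just short of the 1 TPM that a gene needed to enter the test. An exact two-sided permutation test gave p = 0.1, the smallest possible, and a limma fit without the filter on low values gave a log2 fold change of −0.90 (SE 0.21, adjusted p = 0.191).

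*ALDH7A1*, on the minus strand of chromosome 5 (126531200 to 126595362), encodes antiquitin, which acts in lysine breakdown. It was at 122.96, 104.98 and 76.38 TPM in the control libraries against 115.49, 90.07 and 73.23 TPM in the knockdown libraries. The groups overlapped over most of their range. Its log2 fold change of −0.12 (SE 0.24, 95% interval −0.66 to 0.42, adjusted p = 0.833 from limma) leaves room for a difference of either sign. The sign turned without control replicate 1 (0.028), without knockdown replicate 3 (0.035) and with quantile normalization (0.014).

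*ALDH9A1*, on the minus strand of chromosome 1 (165662216 to 165698562), encodes the enzyme that oxidises 4-trimethylaminobutyraldehyde in carnitine synthesis. It was at 79.06, 84.00 and 95.95 TPM in the control libraries against 60.44, 57.92 and 54.08 TPM in the knockdown libraries. All knockdown libraries were below all control libraries by a wide gap for the small spread within each group. The log2 fold change was −0.58 (SE 0.15, 95% interval −0.93 to −0.22, adjusted p = 0.124 from limma).

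*ALDH18A1*, on the minus strand of chromosome 10 (95605941 to 95656711), encodes pyrroline-5-carboxylate synthase, which starts proline synthesis from glutamate and works as a kinase and reductase rather than as a dehydrogenase of aldehydes. It was at 59.33, 59.67 and 48.43 TPM in the control libraries against 63.96, 73.14 and 66.93 TPM in the knockdown libraries. It was the one tested member with a higher mean in knockdown cells, and its groups did not overlap. The log2 fold change was 0.28 (SE 0.16, 95% interval −0.09 to 0.66, adjusted p = 0.419 from limma).

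Across the 7 tested members, 6 log2 fold changes were below 0 and 1 was above, with a median of −0.58 where the median of all tested genes was −0.04. Groups without overlap were lower in knockdown cells for 5 members, beside 13.4% of all tested genes, and higher for 1, beside 9.89%. At an unadjusted p under 0.05, 4 members passed (*ALDH1A1*, *ALDH1A3*, *ALDH3A2* and *ALDH9A1*), beside 2350 tested genes (16.8%). An exact two-sided permutation test of the TPM gave p = 0.1, the lowest that groups of 3 can reach, for each of the 6 tested members without overlap, and p = 0.7 for *ALDH7A1*.

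**Figure D2:**
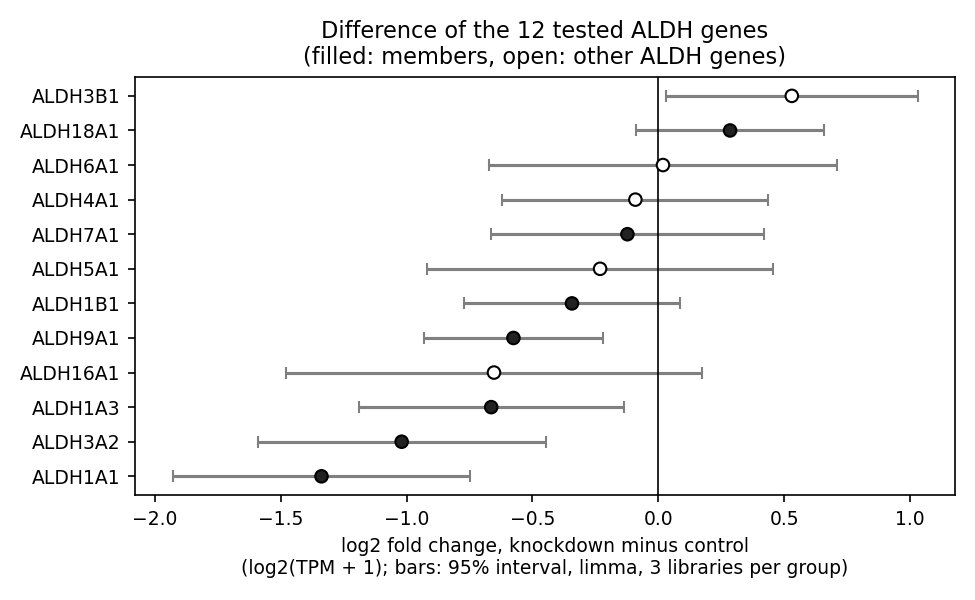
Log2 fold change of the 12 tested ALDH genes, knockdown minus control, with filled points for members, open points for other ALDH genes and bars for the 95% interval of limma from 3 libraries per group. The intervals of ALDH1A1, ALDH3A2, ALDH1A3 and ALDH9A1 lie below 0 and that of ALDH3B1 lies above 0, before any adjustment for the number of genes tested.

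The number called moved with how libraries were weighted. With limma's arrayWeights, which gave weights of 3.00 and 4.39 to control and knockdown replicate 2 and at most 0.948 to each other library, 5 members passed (*ALDH1A1*, *ALDH1A3*, *ALDH1B1*, *ALDH3A2* and *ALDH9A1*), in a fit that called 23% of all genes. With the GC trend removed, *ALDH1A1* (−1.34, adjusted p = 0.0250) and *ALDH3A2* passed, beside 8.61% of all genes. The adjusted p of *ALDH1A1* ran from 0.00726 to 0.219 over all alternatives, and its log2 fold change was −1.03 with arrayWeights and −0.85 with a pseudocount of 5. Without control replicate 3, the value of *ALDH18A1* was 0.19.

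**Figure D3:**
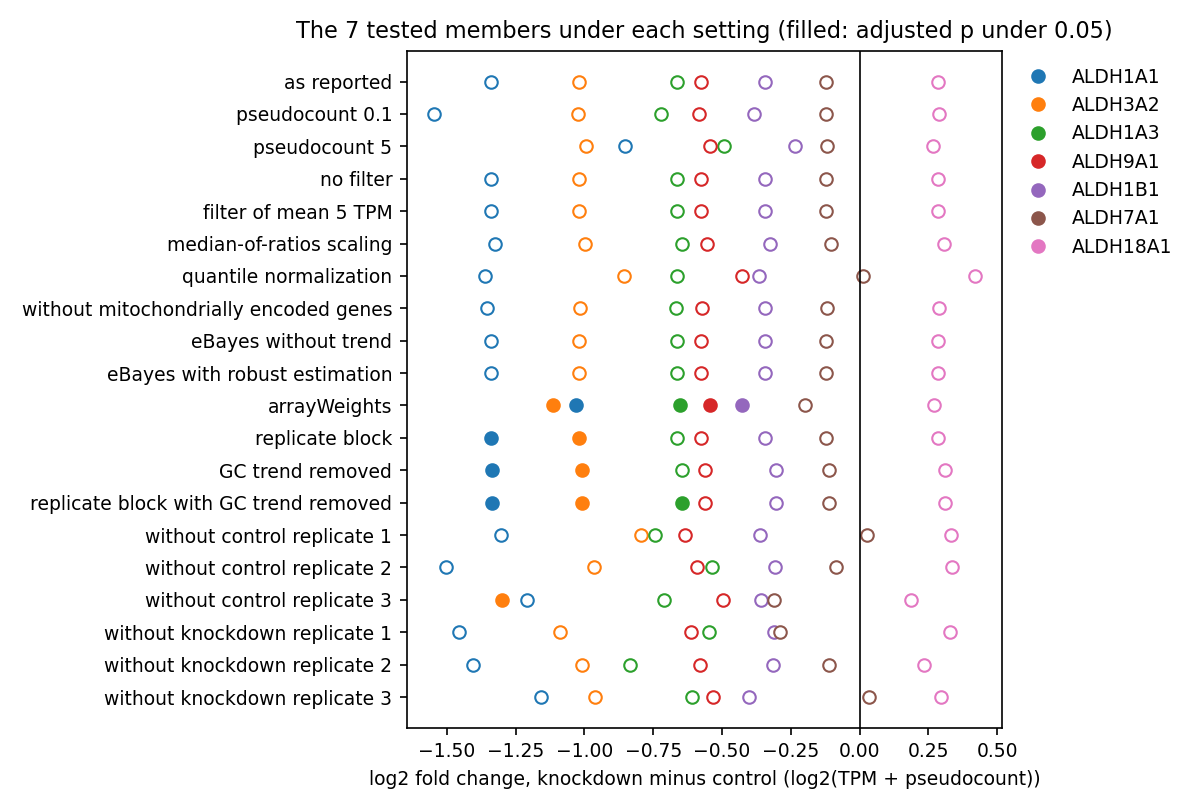
Log2 fold change of the 7 tested members, knockdown minus control, as reported and under each alternative, filled where the adjusted p was under 0.05. ALDH1A1 or ALDH3A2 is the lowest under every setting shown, ALDH7A1 is the one that crosses 0, and filled points appear with arrayWeights, with the replicate block or GC trend removed, and without control replicate 3.

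The 10 members together summed to 613, 536 and 415 TPM in the control libraries against 384, 356 and 319 TPM in the knockdown libraries. Every knockdown sum was below every control sum, with means of 521 ± 100 against 353 ± 32.8 TPM (SD, n = 3). *ALDH3A2* alone made up 52.0%, 46.8% and 38.1% of this sum in control and 32.7%, 31.7% and 33.1% in knockdown replicates. The share of *ALDH18A1* was 9.67%, 11.1% and 11.7% in control and 16.7%, 20.6% and 21.0% in knockdown replicates, and that of *ALDH7A1* was 20.04%, 19.6% and 18.4% against 30.1%, 25.3% and 23.0%. Shares of one sum are bound to each other, so a smaller share of *ALDH3A2* raises those of the rest. The 3 ALDH1A genes, those of the retinaldehyde step, stayed a small part throughout, at 3.84%, 4.66% and 6.18% in control and 2.95%, 4.20% and 3.49% in knockdown replicates.

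**Figure D4:**
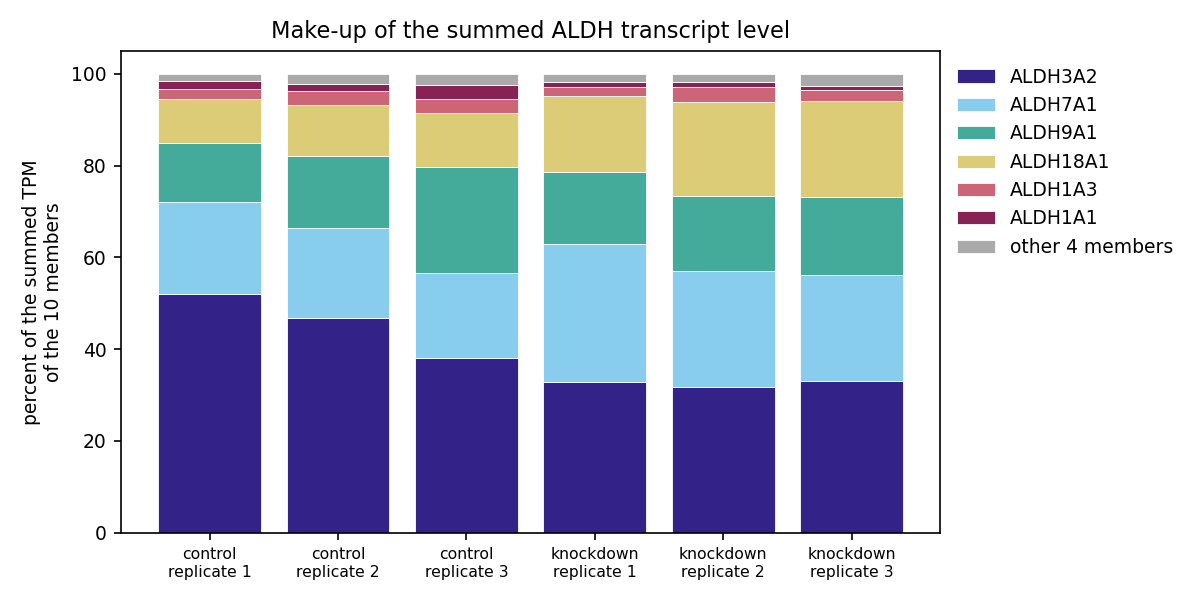
Make-up of the summed TPM of the 10 members in each library, in percent. ALDH3A2 takes between 38.1% and 52.0% in control and between 31.7% and 33.1% in knockdown libraries, and ALDH1A1 takes at most 3.04%.

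Of the 9 other *ALDH* genes, 5 were tested and limma called 0, with 1 under an unadjusted p of 0.05. That one was *ALDH3B1*, which encodes an enzyme for lipid aldehydes, at 11.29, 18.10 and 15.80 TPM in control against 19.25, 23.08 and 23.35 TPM in knockdown libraries. Its groups did not overlap, with a difference of 0.53 on the log2 scale (SE 0.22, adjusted p = 0.273 from limma), and it passed with the GC trend removed (0.64, adjusted p = 0.0210; 0.0210 to 0.599 over all alternatives). *ALDH16A1*, thought to lack the catalytic cysteine, was at 5.10, 11.78 and 12.28 TPM in control against 3.87, 5.21 and 7.81 TPM in knockdown libraries. Its groups overlapped (log2 fold change −0.65, SE 0.36, adjusted p = 0.403 from limma), it was −1.02 without control replicate 1, and it shares 152 exon bases with *PIH1D1* on the opposite strand, at 62.1 to 120 TPM.

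The remaining tested genes are mitochondrial enzymes of amino acid breakdown. *ALDH4A1*, of proline breakdown, had a log2 fold change of −0.09 (adjusted p = 0.876), *ALDH5A1*, of GABA breakdown, −0.23 (adjusted p = 0.735), and *ALDH6A1*, of valine breakdown, 0.02 (adjusted p = 0.984, all from limma). All 3 overlapped between groups. *ALDH1L1* and *ALDH1L2*, of folate metabolism, and *ALDH8A1* were at most at 0.48 TPM in any library, and *ALDH3B2* was at 0 in all. The sum of the 9 was 46.4 ± 6.95 TPM in control and 47.2 ± 5.42 TPM in knockdown cells (SD, n = 3), a difference far below the spread.

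In the retinoid pathway, in which the ALDH1A enzymes act, 9 of 20 genes were tested and limma called 0, with 3 under an unadjusted p of 0.05 (16.8% of all tested genes), 4 without overlap and lower (13.4%), none without overlap and higher (9.89%), and a median log2 fold change of −0.15. *CRABP2*, which carries retinoic acid to its nuclear receptor, was at 0.83, 1.98 and 2.47 TPM in control against 0.43, 0.58 and 0.27 TPM in knockdown libraries (log2 fold change −0.91, adjusted p = 0.235 from limma). *FABP5*, a carrier of fatty acids and retinoic acid, was at 460.83, 404.88 and 553.11 TPM in control against 307.28, 287.16 and 287.46 TPM in knockdown libraries (−0.67, adjusted p = 0.0822 from limma). *RDH10*, which makes the retinaldehyde that the ALDH1A enzymes use, was at 9.07, 7.67 and 7.64 TPM in control against 5.49, 5.38 and 3.99 TPM in knockdown libraries (−0.62, adjusted p = 0.195 from limma). For these 3 genes the groups were apart, with all knockdown libraries below the control libraries. All 3 passed with arrayWeights, beside 23% of all genes, and *RDH10* passed with the GC trend removed, beside 8.61%. The 3 are named as those of the list with the largest absolute log2 fold change.

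Among 22 genes that reduce aldehydes or oxidise alcohols and aldehydes by other routes, 11 were tested and limma called 0, with 1 under an unadjusted p of 0.05 and a median log2 fold change of −0.24. That one was *CBR3*, a carbonyl reductase, at 13, 18.88 and 19 TPM in control against 4.30, 7.65 and 7.29 TPM in knockdown libraries. Its groups did not overlap and its log2 fold change was −1.29 (SE 0.26, adjusted p = 0.0685 from limma). It passed with arrayWeights (beside 23% of all genes), with the GC trend removed (8.61%) and without control replicate 1 (−1.46), the last in a fit that called 3.49% of all genes. *CBR1*, a close relative of it, had −0.50 (adjusted p = 0.310) and *AKR1B1*, aldose reductase, −0.50 (adjusted p = 0.318, both from limma), and both overlapped between groups. These 2 also passed with arrayWeights, at −0.699 (adjusted p = 0.0135) and −0.705 (adjusted p = 0.00936, both from limma). The alcohol dehydrogenases *ADH1A*, *ADH1B*, *ADH4* and *ADH7*, which make acetaldehyde and retinaldehyde from their alcohols, were at 0 in all libraries. *ADH1C* and *ADH6* reached at most 0.26 and 0.83 TPM. *ADH5*, of the same family, was high, at 112 to 174 TPM, and overlapped between groups (log2 fold change −0.24, adjusted p = 0.526 from limma).

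In the proline pathway of *ALDH18A1*, 6 of 8 genes were tested, limma called 0, none had an unadjusted p under 0.05, and the median log2 fold change was 0.01. *PYCR3* and *PYCR1*, which encode reductases that complete proline synthesis, had 0.17 and 0.12 (adjusted p = 0.815 and 0.825 from limma), and both overlapped between groups. In the lysine, choline, carnitine and GABA pathways of *ALDH7A1* and *ALDH9A1*, 3 of 9 genes were tested and limma called 0, with none under an unadjusted p of 0.05 and a median of −0.15. *TMLHE*, the first enzyme of carnitine synthesis, had 0.23 (adjusted p = 0.624), and *AADAT* and *AASS*, of lysine breakdown, had −0.19 and −0.15 (adjusted p = 0.733 and 0.893 from limma).

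In the fatty aldehyde and sphingosine pathways of *ALDH3A2*, 6 of 8 genes were tested and limma called 0, with none under an unadjusted p of 0.05 and a median of −0.08. *PHYH*, which starts the breakdown of phytanic acid, was at 8.16, 6.74 and 4.25 TPM in control against 13.43, 8.65 and 8.37 TPM in knockdown libraries. Its groups did not overlap, and it stood 0.60 higher on the log2 scale (adjusted p = 0.329 from limma), opposite in sign to *ALDH3A2*. *HACL1*, which releases the fatty aldehyde of that route, had −0.18 (adjusted p = 0.609), and *SPHK2*, a sphingosine kinase, −0.17 (adjusted p = 0.836, both from limma).

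**Figure D5:**
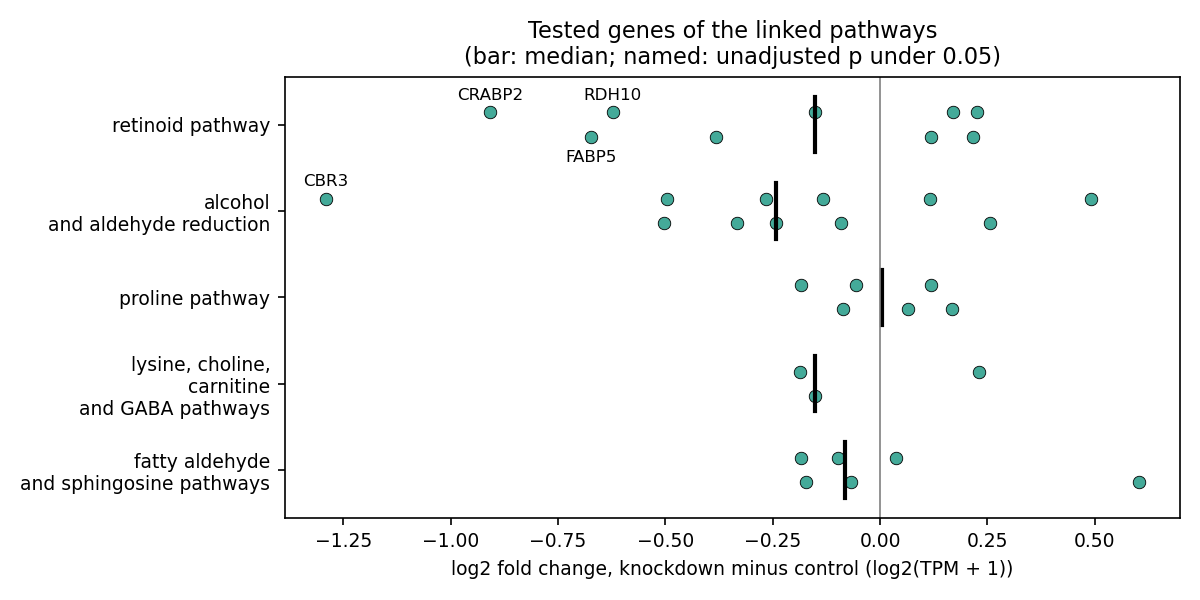
Log2 fold change, knockdown minus control, of each tested gene in the 5 pathway lists, with a black bar at the median of each list and names for genes with an unadjusted p under 0.05. CRABP2, FABP5 and RDH10 of the retinoid pathway and CBR3 lie farthest below 0, and the proline pathway lies around 0.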

How the data were processed

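Poly(A)–selected RNA of 6 SK-Hep1 libraries was sequenced, and the authors deposited TPM values per gene, rounded to 2 decimals. Per the submitters' processing notes the reads were trimmed with fastp and aligned to hg38 with HISAT2 2.0.5, whereas the methods name STAR and RSEM, so the aligner is uncertain. The 62700 gene identifiers were all those of GENCODE release 44, which gave names, positions and GC content, although the methods name a later release.

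Values were analysed as log2(TPM + 1) with limma 3.58.1 in R 4.3.3 (lmFit, eBayes with trend, two-sided, no replicate block). The test took the 14020 genes whose mean over all libraries reached 1 TPM, with Benjamini–Hochberg adjustment over these genes and a threshold of 0.05. Single values were compared by exact permutation of TPM. Alternatives were a pseudocount of 0.1 or 5, all genes unfiltered, a stricter filter at 5 TPM, median-of-ratios scaling, quantile normalization, omission of mitochondrially encoded genes, other eBayes settings, arrayWeights, a replicate block, removal of each library's GC trend (loess, span 0.3), and omission of each library. The fit was tested on simulated data.

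All *ALDH* genes were named, and the alcohol dehydrogenases were named for their levels. Of each pathway list at most 3 others were named, first those called and then those with the largest absolute log2 fold change. One gene that this rule would name is not reported here. For *ALDH1A1* and *ALDH3A2* the 3 genes of most similar pattern were computed, of which the highest 2 are given. The members and lists were chosen with earlier results of these data known.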

Additional observations from a re-analysis of the deposited data

How the results depend on the processing

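*ALDH1A1* kept a negative log2 fold change under every alternative, at −1.50 to −1.16 with each library left out in turn. It was called with arrayWeights (−1.03, adjusted p = 0.00726), with a replicate block (−1.34, adjusted p = 0.0393), with the GC trend removed (−1.34, adjusted p = 0.0250) and with both together (−1.34, adjusted p = 0.0465), and its adjusted p from limma ran from 0.00726 to 0.219. The number of members called, 0 as reported, was 5 with arrayWeights (beside 23% of all genes) and 2 with the replicate block (6.14%). It was 2 with the GC trend removed (8.61%) and 3 with the block and the GC trend removed (7.51%). At the looser threshold of 0.1 it was 1 (3.25%), and with each library left out it was 0 to 1. The one called in the last case was *ALDH3A2*, without control replicate 3, beside 1.14% of all genes. Of the other *ALDH* genes, 1 passed with arrayWeights (*ALDH16A1*) and 1 each with the GC trend removed and with the block and the GC trend removed (*ALDH3B1* in both). *ALDH7A1* reversed with quantile normalization (0.014) and ran from −0.31 to 0.035 with each library left out. *ALDH4A1* reversed with arrayWeights (0.072), with the GC trend removed (0.017) and with the block and the GC trend removed (0.017), and ran from −0.23 to 0.056 with each library left out. *ALDH6A1* reversed with a pseudocount of 5 (−0.0059), quantile normalization (−0.023) and arrayWeights (−0.13), and ran from −0.28 to 0.21 with each library left out. What moved these values was not tested. Deviations of same-numbered libraries from their group means had correlations of 0.410, 0.0359 and 0.279. Between libraries of different number and group, the correlations ran from −0.355 to 0.111. Replicates 1 and 3 were thus above that range and replicate 2 was within it. The labels name no pairing, so the reported fit has no block, and a shared batch of same-numbered libraries was not tested. The replicate block called 6.14% of all genes and the block with the GC trend removed 7.51%. Of the pathway genes named, *CBR3* and *FABP5* were also called with the block, and both again with the block and the GC trend removed, where *RDH10* was not. TPM values hide the depth, so the counting error of low genes such as *ALDH2* and *ALDH1A2* is unknown.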

Other observations

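Over the 6 libraries, 186 of the 14019 other tested genes had a Pearson correlation of at least 0.95 with *ALDH1A1* on the log2(TPM + 1) scale, and 207 with *ALDH3A2*. The closest to *ALDH1A1* were *CTPS1*, CTP synthase (r = 0.995), at 355.50, 315.15 and 384.43 TPM in control and 200.99, 207.08 and 161.25 TPM in knockdown replicates, and *HOMER2* (r = 0.995). The closest to *ALDH3A2* were *PPM1E* (r = 0.998), at 3.37, 2.34 and 1.21 TPM in control and 0.80, 0.52 and 0.52 TPM in knockdown replicates, and *CRK* (r = 0.998). All points share their libraries, depth and GC trend, and the values are a description only.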
